A study of Mus musculus with 9 samples.

Results

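The genes described here are 9 genes of the B-lymphocyte lineage, the cells that make antibodies and that arise in bone marrow, followed in cochlear RNA through age and calorie restriction. They were taken as the probe sets (groups of short probes that report 1 transcript) whose platform annotation gives exactly 1 gene symbol among Vpreb1, Vpreb3, Igll1, Rag1, Ebf1, Pax5, Cd79a, Cd79b and Blnk. That gave 15 probe sets for the 9 genes, out of 45037 probe sets and 18193 named genes in all. A further probe set that carries Vpreb1 together with a second symbol was left out by this rule.

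The RNA came from whole cochleae of male C57BL/6 mice, an inbred strain that loses hearing with age, housed singly and hybridized to 9 Affymetrix arrays of 1 colour. Young controls (YC) were 4 months old and older controls (MC) were 15 months old, and both ate 84 kcal per week. Calorie-restricted mice (CR) were also 15 months old and had eaten 62 kcal per week, 26% less, since 2 months of age. Each group has 3 arrays, and each array carries a pool of 4 cochleae from 2 mice, so no value belongs to a single animal. The sources used here do not say that the pools of a group were prepared separately beyond calling them samples, so p-values measure the spread between these pools.

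B cells start in the marrow as progenitors that switch on the transcription factors Ebf1 and then Pax5. At the next stage the recombinase encoded by Rag1 joins antibody gene segments, and Vpreb1 and Igll1 encode the surrogate light chain that tests the first heavy chain in the pre-B-cell receptor. Vpreb3 encodes a related chaperone-like protein of the same stage. Cd79a and Cd79b encode the signalling chains of the B-cell receptor and Blnk the adaptor that links it to downstream enzymes. These 3 genes stay on in mature B cells and are called mature-stage genes below, though they are not limited to that stage. Ebf1 is not limited to B cells: fat cells, their precursors and other connective tissue cells also use it, as do some neurons.

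The tissue label was borne out by the bright cochlear genes Otos (otospiralin), with deposited signals of 15336 to 57116, and Coch (cochlin), with 15823 to 62293. Of 13 cochlear markers on the array, 10 passed the signal filter, while Kcne1, Tecta and Oc90 fell below it. Transcripts typical of marrow and blood cells were present as well: all 14 neutrophil and myeloid progenitor markers on the array passed the signal filter, led by Ltf (lactoferrin) at 54528 to 161891. Of 11 erythroid markers on the array, 10 passed it. The filter removed every probe set whose mean normalized log2 signal fell under the 40th percentile. By this filter 5 of the 9 genes were measured, Vpreb3, Igll1, Ebf1, Cd79a and Blnk, through 8 of the 15 probe sets, against 27022 of 45037 probe sets in all and 75.3% of all named genes by their brightest probe set. Among other genes of the B lineage, not all limited to it, 48 of 61 passed. Vpreb1, Rag1, Pax5 and Cd79b lay below it with every probe set they have, and were not tested. No value here shows that the transcripts came from marrow of the temporal bone, and the labels name only the cochlea.

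The array medians set a limit on every comparison. The 3 CR arrays and young control 1 had median signals of 526.8 to 626.6, and the 3 MC arrays and young controls 2 and 3 had medians of 842.4 to 1103.9, here called low-median and high-median arrays. Between CR and MC the array class and the diet cannot be told apart, and only the young controls hold both classes. Changes below are differences in log2(signal + 16) after quantile normalization, with standard errors (SE) and p-values from limma over 27022 probe sets, Benjamini-Hochberg adjusted. The threshold was an adjusted p under 0.05.

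The start regions of Vpreb1, Igll1 and Cd79a are shown because these genes are textbook targets of Ebf1 and E proteins, and so are the members that would be read beside Ebf1. Vpreb1 and Igll1 are neighbours on chromosome 16 with starts 5270 bp apart. Sequences are RefSeq, build GRCm38.p6, 250 bases up to the transcription start, 5′ to 3′ on the gene's strand. They lie at chr16:16869256-16869505 (minus strand), chr16:16863986-16864235 (minus strand) and chr7:24897247-24897496 (plus strand). Capitals mark matches to CCCNNGGG, the core letters bound by EBF proteins, or to the E-box CAGGTG, read on either strand as CAGGTG or CACCTG. The 2 motifs do not overlap in these genes.

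Vpreb1: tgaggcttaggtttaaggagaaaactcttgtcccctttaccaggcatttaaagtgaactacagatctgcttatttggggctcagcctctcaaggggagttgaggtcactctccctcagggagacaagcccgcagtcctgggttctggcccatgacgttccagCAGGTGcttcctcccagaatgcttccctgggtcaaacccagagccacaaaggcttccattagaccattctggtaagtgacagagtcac

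Igll1: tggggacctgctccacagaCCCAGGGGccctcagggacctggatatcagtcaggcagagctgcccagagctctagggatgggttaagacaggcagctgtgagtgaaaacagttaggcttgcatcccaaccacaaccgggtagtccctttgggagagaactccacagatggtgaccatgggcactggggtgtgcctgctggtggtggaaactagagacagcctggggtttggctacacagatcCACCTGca

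Cd79a: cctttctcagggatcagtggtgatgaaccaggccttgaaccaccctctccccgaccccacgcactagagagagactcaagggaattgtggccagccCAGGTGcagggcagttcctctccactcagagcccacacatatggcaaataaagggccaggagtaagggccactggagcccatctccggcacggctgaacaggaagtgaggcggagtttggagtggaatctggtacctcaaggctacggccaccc

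The E-box occurred in the 250 bases before the start of 5 of the 8 member genes with a promoter in the table (Vpreb1, Igll1, Rag1, Cd79a and Blnk), and in 17.2% of all 32851 promoters. It lay 88 bases before the start in Vpreb1, 8 in Igll1 and 154 in Cd79a. The EBF core letters occurred in 1 member, Igll1, 231 bases before the start, and in 11.8% of all promoters. These are matches of letters in a short window and describe no binding. Only exact letters were counted, so a start region without a match, as in Vpreb1 and Cd79a, may still hold an EBF site.

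**Figure D1:**
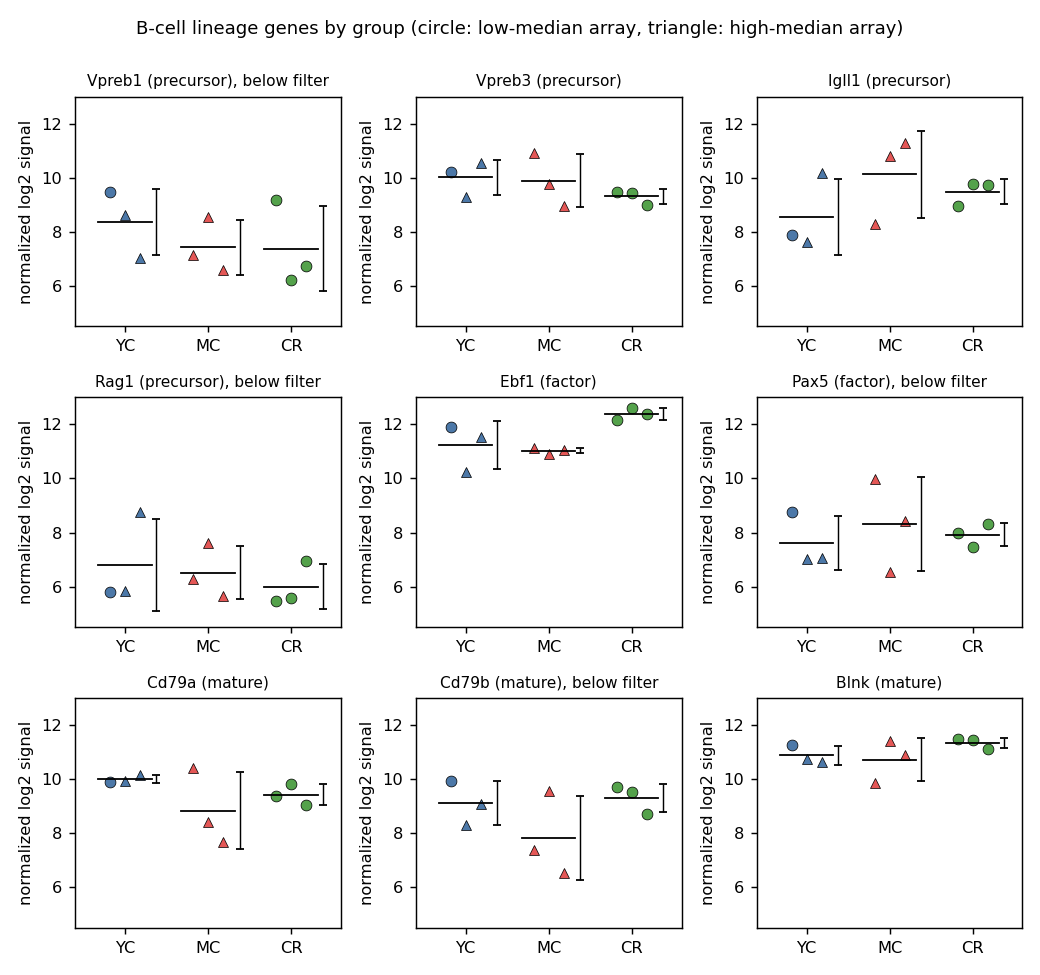
Normalized log2 signal (y axis) of each of the 9 genes, by its brightest probe set, in YC, MC and CR (x axis). Points are arrays, circles low-median and triangles high-median, the line is the group mean and the bar to its right 1 SD (n = 3). The CR points of Ebf1 lie above all others, and in the remaining 8 genes CR and MC overlap.

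Among the precursor genes, Vpreb3 and Igll1 were tested and neither passed the threshold in any comparison, while Vpreb1 and Rag1 were not tested. Vpreb3 had deposited signals of 929.3, 909.9 and 1504.9 in the young controls, 2002.2, 951.2 and 652.4 in the older controls and 485.6, 557.3 and 409.8 in the restricted mice. The restricted pools were the lowest as deposited, while after quantile normalization they overlapped both control groups. The log2 change of Vpreb3 was -0.12 ± 0.54 (SE, n = 3 per group) with age and -0.58 ± 0.54 under restriction (limma adjusted p = 0.564). The restriction change was -0.06 without older control 1 and -1.07 without older control 3.

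Igll1, which encodes the lambda-like chain of the surrogate light chain, read 141.6, 260.8 and 1205.9 in young controls by its brighter probe set. It read 370.8, 1780.6 and 2456.0 in older controls and 314.1, 709.2 and 697.1 in restricted mice. Each control group held both low and high pools, and the restricted values lay inside the range of the controls. The change was 1.57 ± 0.86 with age, with a 95% interval from -0.32 to 3.46, and -0.64 ± 0.86 under restriction (adjusted p = 0.689). Without older control 1 the restriction change was -1.60, and without older control 3 it was -0.0835. The second Igll1 probe set, below the filter, did not follow the first: the correlation of the pair over 9 arrays was -0.52, and its age change was -1.17.

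Vpreb1, the partner chain of Igll1, read 476.0, 556.3 and 136.7 in young controls, 153.9, 425.9 and 114.4 in older controls and 372.9, 41.0 and 77.8 in restricted mice. These signals lay between the 7.35th and 47.4th percentile of their arrays, so none reached an array median. Rag1, the recombinase gene, read 21.0, 75.1 and 487.8, then 82.5, 213.5 and 54.3, then 13.7, 21.7 and 94.3, in the same order of groups. Its highest value, in young control 3, was 35.6 times its lowest, and the young controls alone spanned 21.0 to 487.8. Neither gene was tested, being below the filter. Over 9 arrays Vpreb1 correlated at r = -0.53 with the brighter Igll1 probe set and at r = 0.34 with the dimmer one, so the sign depended on the probe set.

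The mature-stage genes were most variable in the older controls. Cd79a read 683.4, 1344.0 and 1195.3 in young controls, 1506.0, 386.0 and 236.3 in older controls and 447.9, 755.6 and 426.4 in restricted mice. The young pools were alike after normalization (SD 0.14 in log2), whereas older control 1 was the highest array of the series for Cd79a and older control 3 the lowest (SD 1.42). Its change was -1.16 ± 0.64 with age (interval -2.58 to 0.25) and 0.60 ± 0.64 under restriction (adjusted p = 0.613). Without older control 1 these changes were -1.96 and 1.39, and without older control 3 they were -0.58 and 0.00914.

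Cd79b, the second signalling chain, read 718.0, 434.2 and 608.2, then 181.6, 836.1 and 110.9, then 590.9, 582.0 and 341.4. It was below the filter and had a log2 difference of -1.28 with age and 1.48 under restriction. As deposited, older control 2 was above all other arrays and older controls 1 and 3 were below all the rest. After normalization young control 1 and restricted pool 1 stood above older control 2. The 2 chains act as a pair in the receptor, yet their levels correlated at only r = 0.30 over the 9 arrays.

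Blnk, the adaptor, lay above the array median on 9 of 9 arrays. It read 2460.5, 1997.6 and 1599.1 in young controls, 1111.5, 2659.8 and 1976.7 in older controls and 2956.4, 2812.5 and 2195.5 in restricted mice. The restricted values were close together, and older control 2 fell among them. Over the 9 arrays Blnk correlated at r = -0.41 with Cd79a and 0.67 with Cd79b, and the cells that gave its signal were not tested. The change was -0.16 ± 0.39 with age and 0.62 ± 0.39 under restriction (interval -0.23 to 1.48, adjusted p = 0.392).

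Pax5, which commits progenitors to the B lineage, was below the filter by both probe sets. The brighter read 272.3, 179.3 and 137.0 in young controls, 1173.5, 92.5 and 439.4 in older controls and 157.3, 130.7 and 261.6 in restricted mice. Older control 1 alone stood above its array median. The pair of Pax5 probe sets correlated at r = 0.28 over 9 arrays, and their differences under restriction were -0.40 and -0.73.

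Ebf1 gave the clearest separation of the restricted pools among the members, and no test set it against the other members. Its brightest probe set (1416301_a_at) read 4235.2, 1580.1 and 2913.2 in young controls, 2219.4, 1911.9 and 2155.4 in older controls and 5209.2, 7039.8 and 5908.0 in restricted mice. All restricted pools lay above all control pools of either age. The change under restriction was 1.36 ± 0.38, or 2.58-fold (interval 0.53 to 2.20, limma adjusted p = 0.168), which did not pass the threshold. Against young controls it was 1.15 ± 0.38 (adjusted p = 0.457), and between the control ages -0.21 ± 0.38.

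A second probe set, 1448293_at, gave the same order. It read 1727.5, 1333.7 and 1037.7 in young controls, 1079.2, 952.6 and 1160.8 in older controls and 2041.8, 3255.1 and 2567.5 in restricted mice. Its change under restriction was 1.49 ± 0.35, or 2.82-fold (interval 0.72 to 2.27, adjusted p = 0.145). The other probe sets past the filter had smaller or less certain changes: 1416302_at 1.06 ± 0.56 and 1439789_at 0.49 ± 0.25 (adjusted p = 0.323 and 0.302). The fifth, 1457441_at, was below the filter and had a difference of -0.42.

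**Figure D2:**
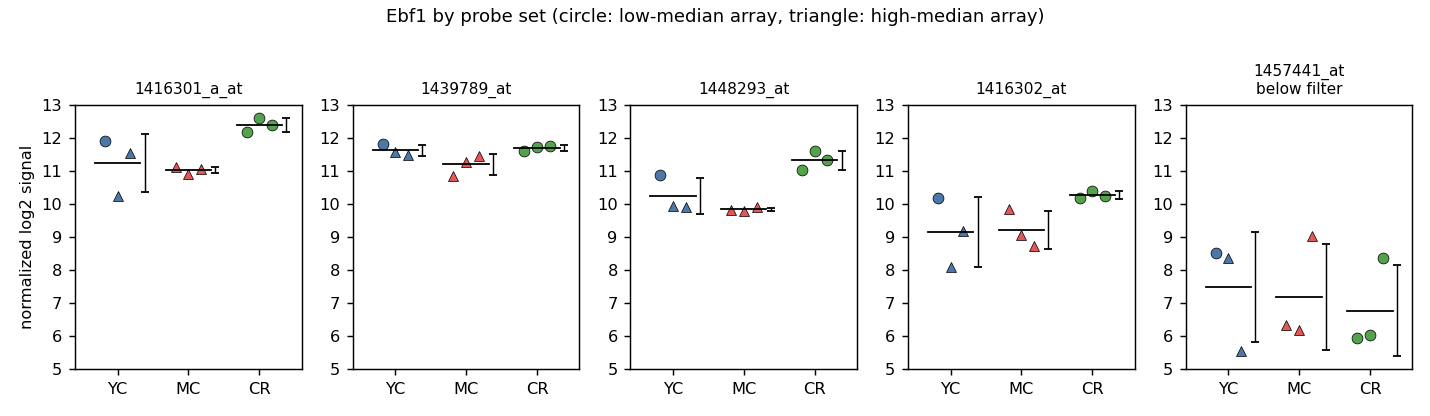
Normalized log2 signal (y axis) of the 5 Ebf1 probe sets in YC, MC and CR (x axis), 1 panel each. Circles are low-median and triangles high-median arrays, lines are group means and bars 1 SD (n = 3). In the 4 probe sets past the filter the CR points lie above the MC points, and young control 1, a circle, is the highest young control.

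In Ebf1 the array class moved with the level. Young control 1, a low-median array, was 1.01 above the mean of young controls 2 and 3 in 1416301_a_at and 0.96 above it in 1448293_at. Within low-median arrays the restricted mean was 0.48 and 0.44 above young control 1 in these probe sets, a comparison with 1 array on one side and no test. Within high-median arrays, older controls differed from young controls 2 and 3 by 0.13 and -0.09. Once array class was added to the fit, the change under restriction was 0.35 (interval -0.96 to 1.66) for 1416301_a_at and 0.53 (interval -0.60 to 1.66) for 1448293_at. For 1416302_at it turned to -0.50. The class term in this fit rests only on young control 1 against young controls 2 and 3. Of all tested probe sets, 37.8% were higher in young control 1 than in both other young controls.

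Other tissues moved with the same comparison. All 10 cochlear markers past the filter were higher in restricted than in older control pools (median 0.997, 0 called), with summed deposited signals of 145799 to 192112 against 69397 to 77706. Of 8 skeletal muscle markers, 8 were lower, 7 of them called, with sums of 168714 to 274701 against 674252 to 952183. Of 8 brain markers, 7 were higher (0 called), with sums of 34747 to 75411 against 13842 to 20629. In the list of fat and stromal genes, cells known to use Ebf1, 2 of 5 were higher, with a median of -0.02 and sums of 173985 to 182654 against 131948 to 181009. There the fatty acid carrier gene Fabp4 had a change of 0.43 ± 0.16 and the fat cell hormone gene Adipoq of 0.87 ± 0.32 (adjusted p = 0.216 and 0.212). The leptin receptor gene Lepr, chosen after its values were seen, had one of -1.18 ± 0.39 (adjusted p = 0.191). The part of these tissues in the Ebf1 values was not tested, and fewer cells of a type cannot be told apart from less RNA per cell in such samples.

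**Figure D3:**
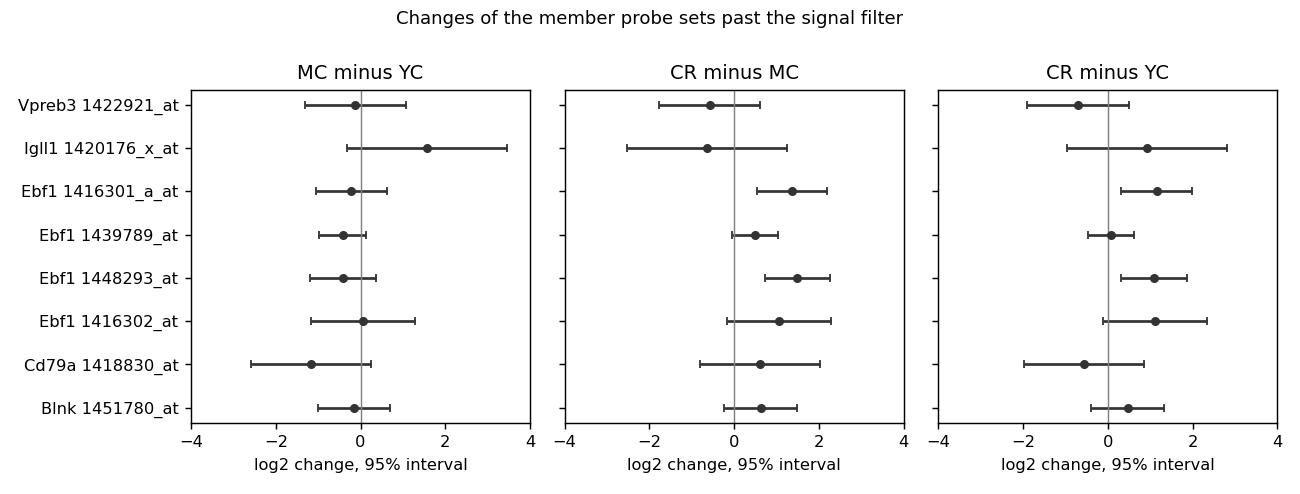
Log2 change (x axis, points) with 95% interval (bars) of the 8 member probe sets past the filter (y axis), for age (MC minus YC), restriction (CR minus MC) and CR minus YC. Under restriction the intervals of Ebf1 1416301_a_at and 1448293_at lie above 0, and those of all other probe sets include 0.

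Across the members, 0 of the 8 tested probe sets passed the threshold in any comparison. Over all probe sets the share called was 0% with age, 0.0925% under restriction and 0% for restricted against young mice. Those shares correspond to 0, 25 and 0 of 27022. At an unadjusted p under 0.05 the tested members numbered 0 with age, where 3.39% of all probe sets did so. Under restriction they numbered 2, both Ebf1 and higher, where 18.5% of all did so and 8.99% were higher. Against young controls they numbered 2, again both Ebf1 and higher, where 10.8% did and 5.21% were higher. After normalization the restricted and older control arrays did not overlap for 4 tested member probe sets, all of Ebf1 and higher, and for 37.8% of all probe sets, 19.5% being higher. With age, 2 Ebf1 probe sets (1439789_at and 1448293_at) did not overlap and were lower in older controls, against 5.88% of all, 2.92% being lower. For restricted against young mice 3 did not overlap, 2 of Ebf1 (higher) and Cd79a (lower), against 20.5% of all, 11.4% higher and 9.1% lower. These overlaps differed in the deposited signals. There Ebf1 1416302_at overlapped between restricted and older pools, whereas Vpreb3 was lower in every restricted pool than in every control pool of either age. The restricted arrays are all low-median as deposited, and no share over all probe sets was taken for deposited signals. With age, 1448293_at overlapped in the deposited signals. Against young controls Cd79a overlapped there, and 1416302_at was higher in all restricted pools. Over the 15 member probe sets the median log2 difference was -0.28 with age, -0.04 under restriction and 0.07 for restricted against young mice. All tested probe sets had 0.02, 0.08 and 0.08, but the 15 include member probe sets below the filter, so the sets are unlike. The older controls enter both of the first comparisons. Of the 8 tested member probe sets, 6 were higher and 2 lower under restriction, where 54.7% of all tested probe sets were higher. Of these 8, 4 were Ebf1.

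The Ebf1 call turned on the settings of the fit. With only the CR and MC arrays in the fit, 1416301_a_at and 1448293_at passed under restriction (adjusted p = 0.0148 and 0.0201), and without young control 2 they passed as well (0.021 and 0.0379). The count over all probe sets then rose to 1846 and 1147.

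Precursor and mature genes were set against each other by their changes, since levels of different probe sets are not comparable. Each gene was centred on its mean over the 9 arrays, by its brightest probe set, and the mean of Vpreb1, Vpreb3, Igll1 and Rag1 was taken less the mean of Cd79a, Cd79b and Blnk. This difference was -0.63, -0.43 and 0.57 in young controls, 0.33, 0.79 and 1.16 in older controls and -0.53, -1.11 and -0.14 in restricted mice. The older and the restricted pools did not overlap, and the young pools reached into both. The mature mean averaged 0.28 ± 0.35 (SD, n = 3) in young, -0.59 ± 0.72 in older and 0.31 ± 0.34 in restricted pools. The precursor mean averaged 0.11 ± 0.65, 0.17 ± 0.60 and -0.28 ± 0.26. No test was made of this score, and 3 of its 7 genes lay below the filter. Because the mature-stage genes are not limited to mature cells, the score does not measure the share of each stage.

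**Figure D4:**
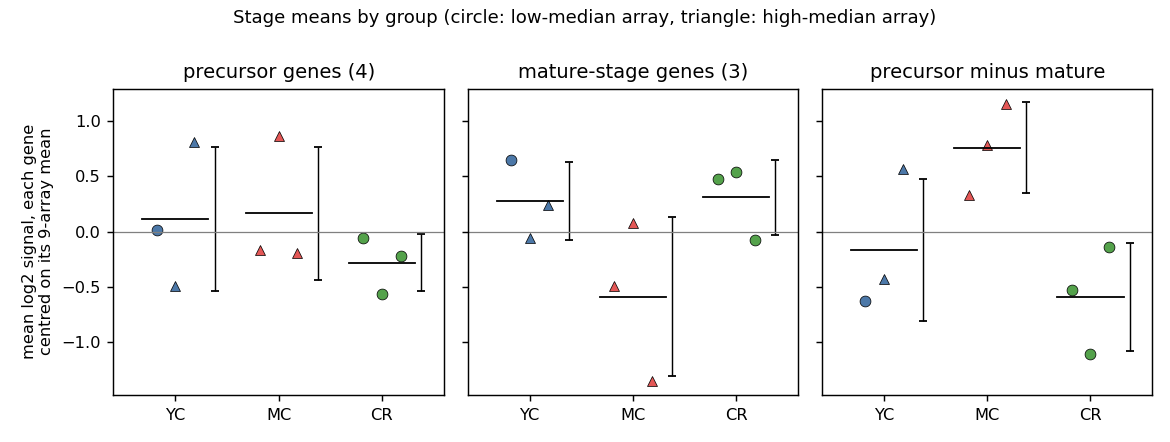
Mean centred log2 signal (y axis) of the 4 precursor genes, of the 3 mature-stage genes and the difference of the means, in YC, MC and CR (x axis). Circles are low-median and triangles high-median arrays, lines are group means and bars 1 SD (n = 3). In the right panel the MC points, from 0.33 to 1.16, lie above the CR points, from -1.11 to -0.14.

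Within each stage the genes did not vary as a unit. Over 9 arrays, the 6 pairs of precursor genes had correlations from -0.53 to 0.39 (median -0.02), and the 3 pairs of mature-stage genes from -0.41 to 0.67. Pairs across the stages ran from -0.74, for Igll1 with Cd79a, to 0.65, for Vpreb3 with Cd79a. Ebf1 correlated with the other 8 members at -0.22 to 0.50. These values are descriptions over arrays that share an array class, and dim probe sets carry much noise.

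The genes most like the members were sought among 13697 named genes past the filter. For the mean of Vpreb3 and Igll1, the precursor genes past the filter, the highest correlations over 9 arrays were with Kcna6 (r = 0.976), Syn1 (0.961), Cops7a (0.943), AI837181 (0.936), Adgre5 (0.934) and Ppp6r1 (0.930). For Cd79a and Blnk they were with Mmadhc (0.970), Tcf7l1 (0.947), Odf2 (0.946), Poc5 (0.942), Nop14 (0.938) and Serpinb2 (0.932). For Ebf1, a ranking added after its values were seen, they were with Mir22hg (0.974), Srgap1 (0.972) and Rev3l (0.970). None of these 15 genes was in the B-lineage lists. The averaged genes did not vary together, with r = -0.32 for Vpreb3 with Igll1 and -0.41 for Cd79a with Blnk. Their means therefore need not show the pattern of either gene. The highest r among 13697 genes over 9 arrays can also be high by chance.

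Other genes of the lineage were read from a list of 71 symbols, of which 61 were on the array and 48 passed the filter. The list was not kept to genes of B cells alone, and some were bright, as Cd24a with deposited signals of 17667 to 93338. Counts over the list and its parts therefore do not measure B cells. With age 27 were higher and 21 lower, and under restriction 22 higher and 26 lower, where 54.7% of all tested probe sets were higher under restriction. Limma called 0 of the listed genes in either comparison. At an unadjusted limma p under 0.05 there were 2 with age and 6 under restriction, where 3.39% and 18.5% of all tested probe sets did so. Of the precursor-stage genes, 10 were tested and 4 were below the filter, among them Rag2, the partner of Rag1, and Dntt, which adds bases at antibody gene joints. Under restriction 7 of the 10 were higher and 3 lower (median 0.14, 0 called). The smallest p over the 3 groups belonged to Mme, a surface peptidase (0.99 ± 0.32, adjusted p = 0.189), Lef1, a transcription factor (0.97 ± 0.46), Flt3, a progenitor cytokine receptor (1.16 ± 0.57), and Cd93 (-0.44 ± 0.25).

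Of 11 tested transcription factor genes, 7 were higher and 4 lower under restriction (median 0.20, 0 called). Bach2, a repressor of plasma cell fate, changed by 1.07 ± 0.41 (adjusted p = 0.218) and Id3, an inhibitor of E proteins, by 0.16 ± 0.25. Spib, an Ets factor of B cells and other leukocytes, changed by -0.18 ± 0.46 and Bcl11a by 0.33 ± 0.41.

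Of 21 tested receptor and mature-stage genes, 6 were higher and 15 lower under restriction (median -0.31, 0 called). The member means differed in sign from the medians of the precursor list and of this list. The precursor mean was lower and the mature mean higher in restricted than in older pools, a difference that was not tested. The precursor list median of 0.14 lay near the 0.08 of all tested probe sets. Of the genes in the member score, Vpreb1, Rag1 and Cd79b were below the filter. Fcrla, an Fc receptor-like protein of B cells, changed by -1.89 ± 0.71 and Cd180, a Toll-like receptor relative on B cells, by -1.30 ± 0.51 (adjusted p = 0.216 and 0.224). Plcg2, a phospholipase downstream of Blnk, changed by -0.51 ± 0.27, and Cxcr4, the receptor that holds cells in marrow, by 0.85 ± 0.39. Cd180 read 668.3, 533.4 and 546.1 in restricted mice and 2203.7, 1827.1 and 1699.4 in older controls, without overlap as deposited. After normalization, restricted and older control arrays did not overlap for 37.8% of all tested probe sets. Young control 1, at 971.5, was the lowest young control, and 33.5% of all tested probe sets were lower in young control 1 than in both other young controls.

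Of 6 tested plasma cell genes, 2 were higher and 4 lower under restriction (median -0.26, 0 called). Among them Prdm1, the regulator of plasma cell fate, changed by -0.92 ± 0.36 (adjusted p = 0.227) and Mzb1 by -0.68 ± 0.35, while Xbp1 changed by 0.15 ± 0.19 and Sdc1 by 0.55 ± 0.42.

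Markers of other cell types found in marrow, and cell cycle genes, which mark no single type, were lower in most cases under restriction, with 0 called. For neutrophil and myeloid progenitor genes it was 12 of 14 (median -0.29), for erythroid genes 8 of 10 (-0.39), for T and NK cell genes 7 of 8 (-0.70), for macrophage genes 6 of 8 (-0.28) and for cell cycle genes 8 of 10 (-0.49). Of the bone and osteoclast genes 5 of 7 were higher (0.39). The summed signals overlapped between the groups, as in the neutrophil list, with 217448 to 421429 in older controls and 230365 to 349676 in restricted mice. No direction is read for Vpreb3, Igll1 or Cd79a beside these lists, since each change under restriction was near 0 without 1 older control.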

How the data were processed

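The authors deposited linear intensity signals per probe set for 9 arrays, made with GCOS 1.3 per the submitters' processing notes; no signal algorithm or detection call is given in the sources used here. All arrays have a mean signal of 1494 to 1496 after trimming 2% at each end, so each had been scaled, while medians differed 2.10-fold. Here log2(signal + 16) was quantile normalized, those under the 40th percentile by mean were removed (27022 of 45037 remained), and group means of all 9 arrays were fitted with limma 3.58.1 (R 4.3.3, lmFit and eBayes with a variance trend), adjusted by Benjamini-Hochberg. Log2 changes had a median SE of 0.43, and precision is limited by the number of arrays.

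Annotation gave 1 symbol for 34945 probe sets, several for 932 and none for 9160, and 34741 matched RefSeq (GRCm38.p6) by gene ID. A gene is represented by its brightest single-symbol probe set. The members and lists were chosen with earlier results of these data known. The naming rule took every member, up to 4 genes of each B-lineage sublist by the smallest moderated F test p, the 2 brightest genes at most of a marker list, and the 6 genes of highest correlation. The tests were tested on simulated data. Alternatives were other pseudocounts, filters, scalings and fit settings, array class as a term, the replicate block and leaving out each array.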

Additional observations from a re-analysis of the deposited data

How the results depend on the processing

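Under 20 alternatives, 448 of 468 values of the 24 tested member changes kept their direction and stayed uncalled, 14 turned direction and 6 became called, all 6 for Ebf1 under restriction. Ebf1 1416301_a_at and 1448293_at were called with array weights (1.37 and 1.52, adjusted p = 0.00841 and 0.00961, where the weights stopped short of convergence), with only the groups compared (1.36 and 1.49) and without young control 2 (1.42 and 1.55). With array weights the age change was 0.0655 for Vpreb3 and -0.0813 for Ebf1 1416302_at. With array class as a term it was 0.13 for Ebf1 1416301_a_at and 0.0407 for Blnk, the restriction change was 0.39 for Igll1 and -0.50 for Ebf1 1416302_at, and Ebf1 1439789_at was at -0.13 for restricted against young mice. With each array left out in turn, the age change ran from -0.74 to 0.12 for Ebf1 1416301_a_at, -0.48 to 0.57 for Ebf1 1416302_at, -0.51 to 0.28 for Blnk and -0.65 to 0.35 for Vpreb3. The count of probe sets called under restriction, 25, was 0 with arrays centred on their median, with no variance trend, with array class as a term and with the replicate block, 7 in the table as deposited, 3397 with array weights and 1846 with only the groups compared. Leaving out each array gave 0 to 1147 under restriction, 0 to 328 for restricted against young mice (328 without young control 1) and 0 with age. The replicate block changed no call of a member, and the numbers did not pair the arrays: deviations of same-numbered arrays from their group means correlated at -0.29 to 0.27. The precursor less mature difference between restricted and young mice, -0.43, was 0.16 over members past the filter, an alternative chosen after seeing the data, and ran from -0.65 to -0.06 with an array left out (-0.06 without young control 3, -0.17 without restricted pool 2). The cause of these shifts was not tested. The 7 member probe sets below the filter lie where the array gives little signal, so their values carry little weight.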

Other observations

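A pair of lineage genes outside the members had patterns of their own, and both were chosen after their values were seen. Ighm, the heavy chain of the first antibody class made, has 11 single-symbol probe sets, of which only the brightest is shown. That probe set had deposited signals of 33465, 3218 and 6437 in young controls and 4484, 20195 and 21698 in older controls. In restricted mice it read 44535, 30377 and 27518. Within the young controls the low-median array was the highest, as for 37.8% of all tested probe sets. The restricted pools lay above all older controls as deposited (log2 change 1.09, limma adjusted p = 0.415). After normalization, 19.5% of all tested probe sets were higher in every restricted than in every older control array. Dntt, the polymerase of early B-cell and T-cell precursors, read 622.7, 954.1 and 707.8 in older controls, against 281.8, 232.6 and 340.6 in young controls and 37.9, 299.0 and 116.7 in restricted mice. The older controls lay above both other groups in these deposited signals, for which no share over all probe sets was taken. This probe set, the brightest of 3, was below the signal filter and was not tested.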
